A study of Homo sapiens with 8 samples.

Results

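ANKRD11 is a protein-coding gene on the minus strand of chromosome 16, and its span includes the 100-kb window, on a fixed grid of 1 strand, with the most RBM45 peaks shared by both wild-type CLIP replicates. The other 2 windows of that grid that reach into the gene ranked 15 and 36. Its members here are the peaks overlapping 89334035 to 89556969 (hg19, 222.9 kb, first base of a chromosome counted as 1) and listed on the minus strand. They number 370 of the 210878 entries in the replicate 1 list and 215 of the 65587 entries in the replicate 2 list, an entry being 1 distinct peak on 1 strand. Of the 13758 pairs in the authors' list of shared peaks, 86 lie here. The locus was picked from these same lists for its number of shared peaks, so its counts, overlaps and folds are given as a description and carry no test.

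The study mapped the RNA bound by RBM45 in HEK293T cells, a transformed human embryonic kidney line. Its groups are CLIP and size-matched input libraries from METTL3 knockout cells, and CLIP and input libraries from wild-type (WT) cells, with 2 replicates each. All cells carried lentiviral FLAG-HA-tagged human RBM45 and were irradiated with 300 mJ/cm2 of 254-nm ultraviolet light, and CLIP libraries used an antibody to the HA tag. The protein studied is therefore a transgene product on top of whatever RBM45 the line makes itself. The results below use the 2 WT CLIP peak lists and the list of shared pairs. Knockout and input libraries were not used, and the read depth behind each list is unknown. The labels do not say that the replicates came from separate cultures, so differences between them may be technical.

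In CLIP, a protein is cross-linked to RNA with ultraviolet light and pulled down, and the bound fragments are sequenced. A peak is a short stretch where fragments pile up above the caller's background. RBM45 is an RNA-binding protein with several RNA recognition motifs that is found in protein inclusions in amyotrophic lateral sclerosis. METTL3 is the catalytic subunit of the enzyme that writes most m6A on messenger RNA, and m6A is known to be frequent in long internal exons and near stop codons. ANKRD11 encodes a large nuclear protein with ankyrin repeats that binds coactivators and histone deacetylases, and loss of 1 copy causes KBG syndrome, a disorder of neural and skeletal development. The gene has very long introns and 1 very large coding exon, so it offers both kinds of sequence in 1 transcript. In GENCODE release 29 (GRCh38) the longest transcript has 13 exons totalling 9312 bases. Exon 9 alone is 6578 bases, or 70.6% of that transcript, and the next longest exon is 1045 bases. Introns 1 and 2 are 71.9 and 101 kb and make up 77.6% of the gene. Those lengths describe the gene only. Peaks were not placed against individual exons, because that annotation is on another build than the peaks.

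RBM45 peaks were scattered along ANKRD11 from nearly 1 end to the other. Replicate 1 listed 1.66 entries per kb of the gene, on average 1 in every 0.603 kb, and replicate 2 listed 0.964 per kb, or 1 in every 1.04 kb. The entries covered 21819 bases (9.79% of the gene) in replicate 1 and 9993 bases (4.48%) in replicate 2. Replicate 1 held 1.72 times as many entries as replicate 2 in ANKRD11, against 3.22 times in the rest of the lists. The gene thus takes 0.328% of the replicate 2 list and 0.175% of the replicate 1 list.

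Many of the peaks were wider than the median of their lists. Fold enrichment, the authors' ratio of signal to the caller's background, had a median of 3.88 in ANKRD11 and 3.12 in the rest of the list in replicate 1. In replicate 2 the medians were 3.86 in ANKRD11 and 3.81 in the rest of the list. Medians of other dense windows are given below. Above 5-fold were 94 of 370 replicate 1 entries (25.4%, 95% exact binomial interval 21.0 to 30.2), where 9.16% of that whole list passed. In replicate 2 they were 55 of 215 (25.6%, 19.9 to 32.0), where 18.0% of the list passed. Above 10-fold were 5 replicate 1 entries (1.35%, 0.440 to 3.13), where 0.279% of that list passed, and 1 replicate 2 entry (0.465%, 0.0118 to 2.56), where 0.464% passed. Median width was 43 bases in ANKRD11 and 30 in the rest of the list in replicate 1, and 39 in ANKRD11 and 31 in the rest in replicate 2. Entries at the shortest listed width, 30 bases, made up 20.5% of ANKRD11 entries and 51.6% of the rest in replicate 1, and 24.2% and 48.0% in replicate 2. These intervals and those of shares below are exact (Clopper-Pearson) and cover counting error only. All intervals given here treat neighbouring peaks or distances as independent.

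**Figure D1:**
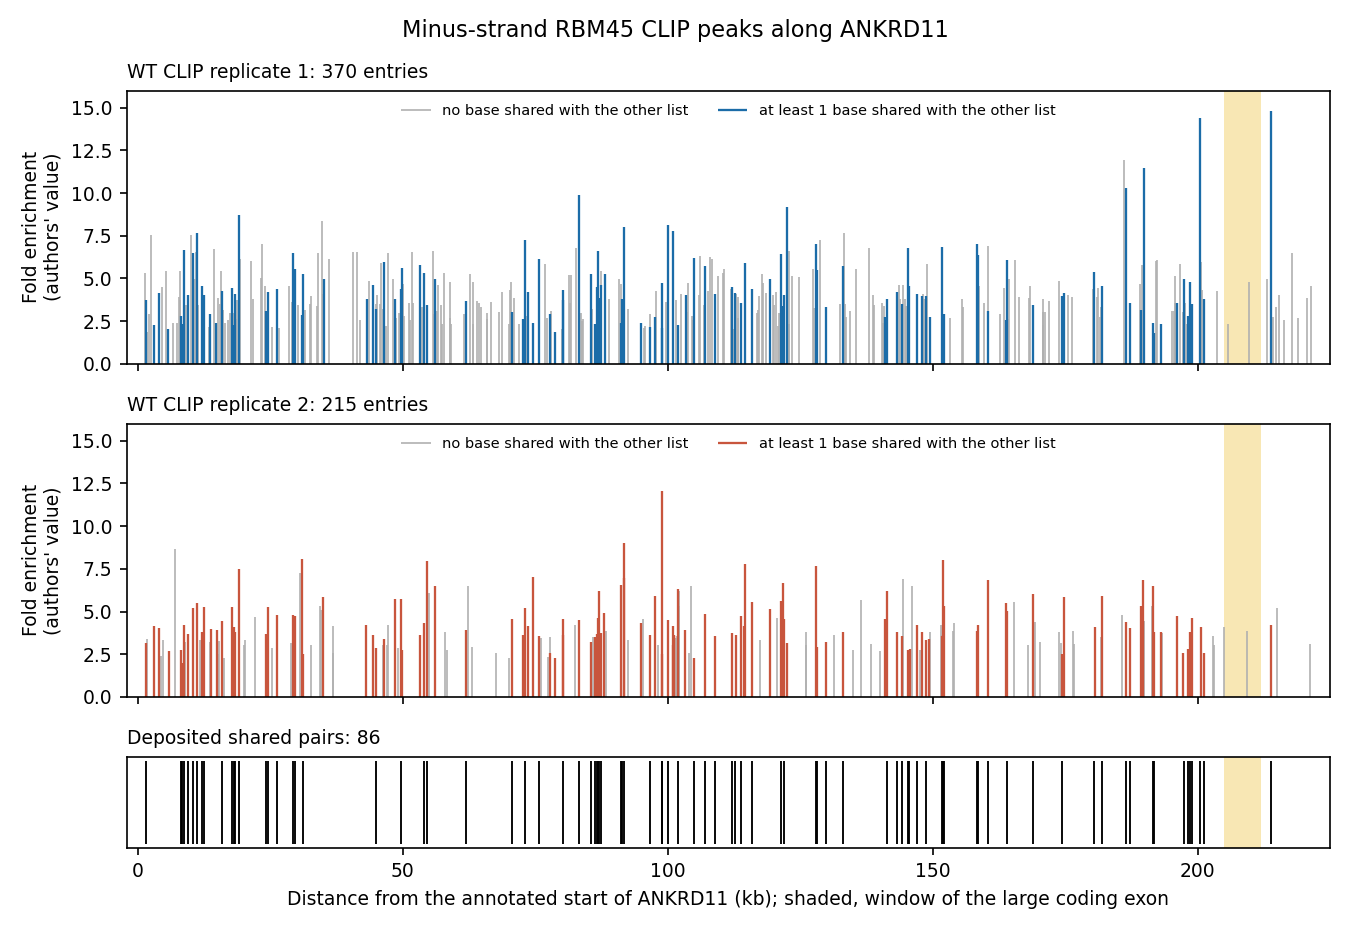
Fold enrichment (authors' value) of each minus-strand entry against distance from the annotated start of ANKRD11 in kb, for WT CLIP replicate 1 (370 entries) and replicate 2 (215 entries), with the 86 shared pairs as ticks below. Coloured lines share at least 1 base with the other list, and the shaded window of the large exon holds few entries and no pair.

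Listed minus-strand entries ran to near both ends of the gene. The entries nearest the gene's start lay 1.35 kb inside it in replicate 1 (89555555 to 89555622, 5.34-fold) and 1.46 kb inside in replicate 2 (89555445 to 89555511, 3.18-fold). Beyond the start, the next minus-strand entries lay 155 kb away in replicate 1 (4.32-fold) and 154 kb away in replicate 2 (2.49-fold). At the other end, the last entries inside lay 1.46 kb (4.56-fold) and 1.72 kb (3.11-fold) from the border. The next ones outside were 67.5 kb (4.68-fold) and 297 kb (2.61-fold) away, in replicate 1 and replicate 2. The lists themselves limit what these borders mean. Those distances count minus-strand entries only, and the nearest listed peaks beyond both ends were on the plus strand in both lists. Peak names carry running numbers, which rose with position along chromosome 16 without exception in both lists. Inside ANKRD11 no number was absent, 0 of 370 and 0 of 215, while 25.6% of replicate 1 numbers and 15.2% of replicate 2 numbers are absent over the whole lists. In the 20.0 kb between the 5′-most entry of ANKRD11 and the next listed peak, 11 replicate 1 numbers are skipped, 0.550 per kb. In the 44.0 kb beyond the 3′-most entry 17 are skipped, 0.386 per kb. The replicate 2 numbers skipped were 3 in 24.9 kb and 6 in 39.8 kb, 0.121 and 0.151 per kb. Inside the gene the rates were 1.66 and 0.964 per kb. The stretches on either side end at the next listed peak, so they hold no listed peak by choice and only skipped numbers enter their rates. That choice lowers them, so whether peaks were sparser outside the gene cannot be read from this comparison.

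Strand says less here than it appears to. On the plus strand of the same span the lists held 5 and 3 entries, and all 8 were peaks also listed on the minus strand. They lay within 3.91 kb, 89387620 to 89391531. Each ANKRD11 entry was repeated in 3 or 4 rows. The 3-row entries, 12 in replicate 1 and 5 in replicate 2, lay at least 205 kb from the gene's start, and the 4-row entries lay within 204 kb of it. RefSeq lists 4 transcripts of ANKRD11. The sources used here do not say whether the strand column came from the reads or from an annotation. In GENCODE, 5 genes on the plus strand and 1 on the minus strand (AC092120.1, sense intronic, 2.15 kb) lie within ANKRD11. Reads from that minus-strand gene cannot be told apart from those of ANKRD11 in these lists. Unless the strand column came from the reads, the same holds for the plus-strand genes. The 8 peaks listed on both strands are counted among the ANKRD11 entries.

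The window of the large coding exon, 89345000 to 89352000 (7.0 kb), was nearly empty. By midpoint it held 2 entries in replicate 1 and 1 entry in replicate 2, against 368 and 214 in the 215.9 kb outside it. Outside the window the rates were 1.70 per kb in replicate 1 and 0.991 per kb in replicate 2. At those rates a stretch of this length would hold 11.9 and 6.94 entries. The rate inside was 0.168 times that outside in replicate 1 (95% exact interval of the ratio 0.0202 to 0.610) and 0.144 times in replicate 2 (0.00363 to 0.812). These intervals describe counting error and are not a test, since neighbouring peaks are not independent and the window was named with these lists in view. Empty stretches also lay outside the window, the longest of them 4.47 kb in replicate 1 and 6.25 kb in replicate 2.

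The few peaks inside the window did not coincide between replicates. Replicate 1 had entries at 89347304 to 89347335 (4.78-fold, −log10 p 6.39) and 89351202 to 89351231 (2.34-fold, −log10 p 2.35). Replicate 2 had 1 entry at 89347661 to 89347690 (3.86-fold, −log10 p 4.08), 325 bases from the nearest replicate 1 entry. A second replicate 2 entry, 89351987 to 89352030 (4.07-fold), crossed the window's edge. None shared a base with the other list, and the window held 0 of the 86 pairs. The exact 95% Poisson limit for a count of 0 is 3.69 pairs, and the rate outside corresponds to 2.79, so a lack of pairs in the window is not detectable at this number. The low rate was not confined to the window either. The 11 kb between it and the gene's 3′ end held 10 replicate 1 entries (0.912 per kb, 0.437 to 1.68), 3 replicate 2 entries (0.274 per kb, 0.0564 to 0.800) and 1 pair. The replicate 2 interval there overlaps that of the window (0.143 per kb, 0.00362 to 0.796). The 205 kb on the 5′ side, where the long introns lie, held 358 and 211 entries and 85 of the 86 pairs.

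The highest folds of replicate 1 stood on either side of this window. The entry at 89343130 to 89343169, on its 3′ side, had 14.8-fold, and the entry at 89356410 to 89356445, on its 5′ side, had 14.4-fold. Their replicate 2 partners shared 30 bases with each and had 4.23-fold and 4.08-fold. The highest entry of replicate 2 lay elsewhere, 99.0 kb from the gene's start.

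Along the gene, peaks were spread rather than concentrated at a single place. In the 22 full 10-kb bins from the start, replicate 1 had 8 to 28 entries (median 17) and replicate 2 had 2 to 18 (median 9.5). Every full bin held at least 1 pair, with a median of 4 and at most 9. The richest bin, 10 to 20 kb from the start, had 28 entries in replicate 1, 18 in replicate 2 and 9 pairs. In replicate 1 the poorest full bins were the last ones, with 8 entries each from 200 to 210 kb and from 210 to 220 kb. In replicate 2 the poorest were the bins at 210 to 220 kb, with 2 entries, at 60 to 70 kb, with 4, and at 130 to 140 kb, with 5. Single pairs were found in 5 full bins, at 30, 60, 130, 170 and 210 kb. The counts of the 2 lists moved together over these 22 bins (Pearson's r 0.771, Spearman's rho 0.740). This is a description of bins of 1 gene, which share libraries and local sequence.

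**Figure D2:**
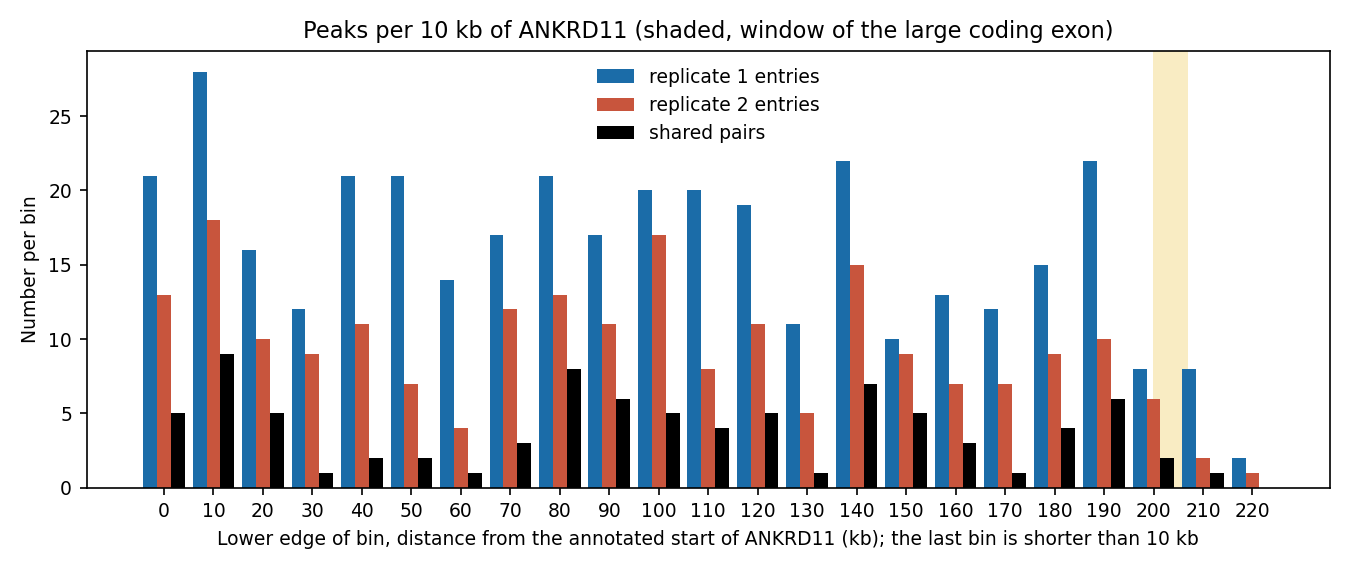
Numbers of replicate 1 entries, replicate 2 entries and shared pairs in 10-kb bins from the annotated start of ANKRD11; the shaded band marks the window of the large exon. Replicate 1 bars run from 8 to 28 in the full bins and replicate 2 bars from 2 to 18.

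Peaks followed each other closely along the gene. The median distance between neighbouring midpoints was 383 bases in replicate 1 (95% interval of the median 333 to 412, quartiles 185 and 752) and 649 bases in replicate 2 (514 to 852, quartiles 277 and 1373). Shared entries were 1634 bases apart at the median (900 to 2159, quartiles 456 and 3575). In replicate 1, 356 of 370 entries (96.2%) had another within 1 kb, where 54.0% of the whole list did. In replicate 2 it was 189 of 215 (87.9%), where 42.7% of the list did. The closest midpoints were 62 bases apart in replicate 1, 52.5 in replicate 2 and 98.5 among shared entries. No entries touched: the smallest gaps were 31 and 22 bases.

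**Figure D3:**
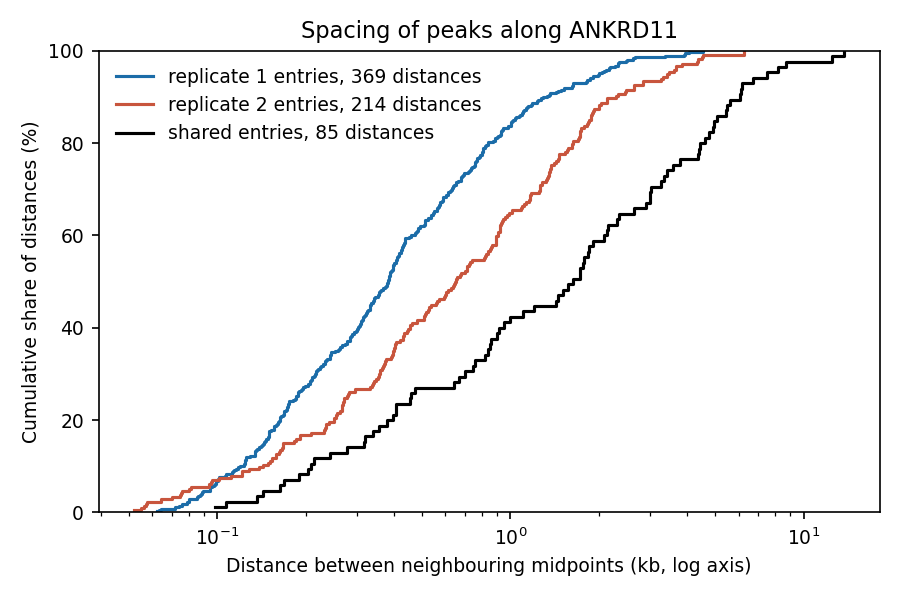
Cumulative share of distances between neighbouring midpoints (kb, log axis) for replicate 1 entries (369 distances), replicate 2 entries (214) and shared entries (85) of ANKRD11. The curves are ordered by list length, with medians of 383, 649 and 1634 bases.

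The longest empty stretches of the lists fell at the same place. In replicate 1 the longest gap was 4.47 kb, 89516314 to 89520784, and in replicate 2 it was 6.25 kb, 89513855 to 89520106. Among shared entries it was 13.7 kb, 89512073 to 89525799. All 3 lie between 31.2 and 44.9 kb from the gene's start. Shared entries are part of the replicate 1 list, so their gap is not independent of the replicate 1 gap. The next largest distance between starts of successive shared entries was 12.5 kb and spanned the exon window. The pair before the 13.7-kb gap, at 89512030 to 89512072 in replicate 1, had 3.21-fold in replicate 1 and 2.86-fold in replicate 2. The pair after it, at 89525800 to 89525829, had 5.27-fold and 2.51-fold. At the other extreme, 5 consecutive shared entries lay within 1.23 kb, 89469528 to 89470757, where replicate 1 had 6 entries and replicate 2 had 5. Their folds ran from 2.31 to 6.59 in replicate 1 and from 3.48 to 6.22 in replicate 2. The closest 3 spanned 472 bases, 89548301 to 89548772, with 3 entries in each list. The first pair from the gene's start was 89555415 to 89555511 (3.76-fold in replicate 1 and 3.18-fold in replicate 2). The last was the 14.8-fold entry on the 3′ side of the exon window.

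Replicates often placed peaks at the same bases in ANKRD11. Of 215 replicate 2 entries, 129 shared at least 1 base with a replicate 1 entry (60.0%, interval 53.1 to 66.6), where 28.8% of the whole list did. Of 370 replicate 1 entries, 125 did (33.8%, 29.0 to 38.9), where 8.88% of the list did. The stricter rule of the authors' pairs, at least 50% of the replicate 1 peak, took in 85 replicate 2 entries (39.5%, 33.0 to 46.4) and 86 replicate 1 entries (23.2%, 19.0 to 27.9). Over the whole lists that rule takes in 20.9% and 6.52%. Of the 130 overlapping pairs of the gene, 44 fell short of it. The 86 unmatched replicate 2 entries lay a median of 159 bases from the other list, where the median over all unmatched entries of the list was 782 bases. For the 245 in replicate 1 it was 317 bases, where that of the list was 4520. Within 100 bases of the other list lay 34.9% in replicate 2 and 21.2% in replicate 1, where 12.1% and 3.74% of the lists did. With entries this dense, small gaps also follow from spacing, and that part was not tested.

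The share was similar along most of the gene. In replicate 2 it was 57.4%, 66.0%, 62.5% and 59.5% in the 4 successive 50-kb stretches from the start, each within the intervals of the others. Beyond 200 kb it was 3 of 9 entries (33.3%, 7.49 to 70.1), too few to set apart.

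ANKRD11 entries ranked high in their lists, and overlap was more frequent among stronger entries. When each whole list was cut at its quartiles of −log10 p into 4 bands, 56.2% of ANKRD11 entries and 24.9% of the rest were in the strongest band in replicate 1. In replicate 2 it was 37.7% of ANKRD11 entries and 24.9% of the rest. Within that band 74.1% of ANKRD11 replicate 2 entries were matched (63.1 to 83.2), against 46.6% of the rest of the list (45.8 to 47.3). In replicate 1 it was 40.4% in ANKRD11 (33.7 to 47.4) and 20.5% in the rest (20.1 to 20.8). In the weakest band, 9 of 24 ANKRD11 replicate 2 entries were matched (37.5%, 18.8 to 59.4), and 16.1% of the rest. For replicate 1 it was 5 of 38 in ANKRD11 (13.2%, 4.41 to 28.1), and 3.14% of the rest. These shares are a description, since the locus was chosen for its shared peaks. A gene with more entries per kb also gives each peak more chances to overlap, and the part of strength or density in the shares was not tested.

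**Figure D4:**
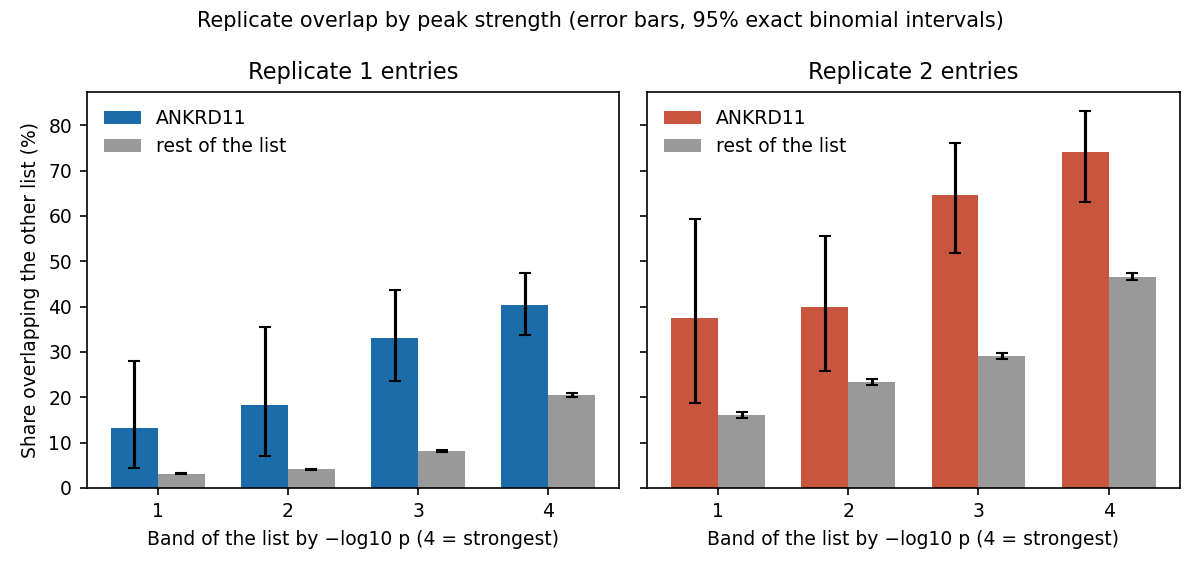
Share of entries overlapping the other list (%), for ANKRD11 and for the rest of the list, in 4 bands cut at the quartiles of −log10 p of each whole list, with 95% exact binomial intervals. In every band of both lists the ANKRD11 bar is the higher, as 74.1% and 46.6% in the strongest band of replicate 2.

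The pairing rule bounds how far apart paired peaks can lie, so their distance is a description. Midpoints of the 86 pairs were a median of 6.75 bases apart and at most 67, and 62.8% (51.7 to 73.0) lay within 10 bases. In the pairs outside ANKRD11 the median was 4 bases and 74.6% lay within 10. Wider peaks can lie farther apart under that rule, and ANKRD11 entries were wider at the median in both lists. The part of width in this difference was not tested. Pairs of ANKRD11 had 33 bases in common at the median (18 to 104), and median widths of 43 bases in replicate 1 and 47 in replicate 2. No pair had both ends identical, 3 had the same start and 7 the same end. The replicate 2 peak lay wholly inside its partner in 27 pairs, and the replicate 1 peak in 13.

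Fold enrichment of an ANKRD11 pair was only weakly related between the lists. Median fold over the pairs was 4.35 in replicate 1 (1.82 to 14.8) and 4.23 in replicate 2 (1.97 to 12). The log2 ratio of replicate 1 to replicate 2 averaged 0.07 with an SD of 0.72 in ANKRD11 and −0.03 with an SD of 0.61 in the other pairs. Within a factor of 2 were 71 of 86 pairs (82.6%, 72.9 to 89.9) in ANKRD11 and 90.6% (90.1 to 91.1) elsewhere. Beyond it, replicate 1 was higher in 7 pairs and replicate 2 in 8. Across the 86 pairs the Spearman correlation of fold was 0.107 and the Pearson correlation of log2 fold was 0.097. For −log10 p the Spearman correlation was 0.257. Correlations were not computed for the other pairs, so whether they are lower in ANKRD11 is unknown. These describe pairs of 1 gene from the same 2 libraries, and pairs are not independent. Both peaks exceeded 5-fold in 8 of the 86 pairs and 1 of them did in 40. Such counts were not made for the other pairs, so these do not set ANKRD11 apart.

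**Figure D5:**
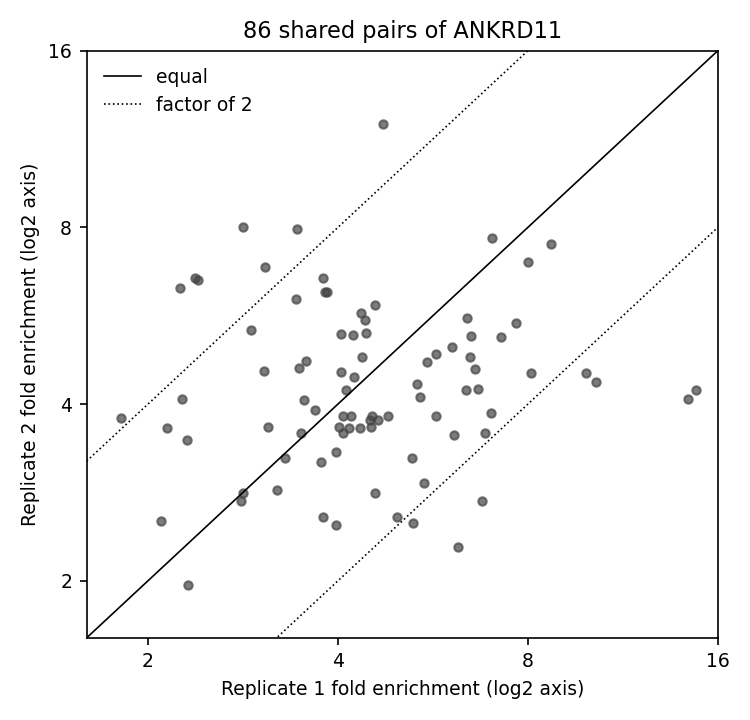
Fold enrichment of the 86 shared pairs of ANKRD11 in replicate 2 against replicate 1 (log2 axes), with lines for equal values and for a factor of 2. Points form no clear diagonal, and 15 lie beyond a factor of 2, 7 with replicate 1 higher and 8 with replicate 2 higher.

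The pairs that were high in both lists lay in different parts of the gene. Ranked by the lower of the folds, the first was 89537832 to 89537880, 19.1 kb from the start, with 8.72-fold in replicate 1 and 7.51-fold in replicate 2. The second was 89428925 to 89428959, 128 kb from the start, with 7.02-fold and 7.68-fold, and its peaks ended at the same base. The third, 89465125 to 89465246, had 8.02-fold and 6.97-fold. The fourth, 89435603 to 89435653, had 6.41-fold and 5.62-fold, and the fifth, 89545698 to 89545748, had 7.67-fold and 5.50-fold. These 5 lie between 11.2 and 128 kb from the start. None could lie in the window of the large exon, which held no pair.

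Single high-scoring peaks were mostly matched, though the fold values of the 2 lists share no common scale. The 3 highest scores of replicate 1 belonged to 89473603 to 89473768 (9.90-fold), 89356410 to 89356445 (14.4-fold) and 89470142 to 89470174 (6.59-fold), and all 3 were in pairs. The 3 highest of replicate 2 were 89457932 to 89457967 (12-fold), 89549902 to 89549933 (8.64-fold) and 89537833 to 89537894 (7.51-fold). The first of these had a replicate 1 partner of 4.72-fold. The second had none, and the nearest replicate 1 entry was 277 bases away. The third belongs to the pair ranked first above. In the whole lists the highest ANKRD11 score ranked 241 of 210878 in replicate 1 and 201 of 65587 in replicate 2. The widest replicate 1 entry, 524 bases at 89370603 to 89371126 (12-fold), had no base in common with replicate 2, whose nearest entry was 69 bases away. The widest replicate 2 entry was 168 bases at 89458025 to 89458192 (2.53-fold) and was in a pair.

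On a fixed grid of 100-kb windows of 1 strand, the middle window of ANKRD11, 89400001 to 89500000, held 173 replicate 1 entries, 105 replicate 2 entries and 43 shared entries. It ranked 1 by each of these counts among 20805 windows with any entry, and 2 by shared entries when only the stronger 50% of each list was kept. The next by shared entries, chromosome 2, 236400001 to 236500000, plus strand, held 152 and 82 entries and 36 shared. Median spacing in replicate 1 was 384 bases in the ANKRD11 window, 393 in the chromosome 2 window and 272 to 645 over the 7 windows next in rank by shared entries. In replicate 2 it was 633 in the ANKRD11 window, 695 in the chromosome 2 window and 370 to 846 over those 7. Median fold in replicate 1 was 3.84 in the ANKRD11 window and 3.33 to 4.06 over those 7. In replicate 2 it was 3.81 in the ANKRD11 window and 3.52 to 4.31 over those 7. The ANKRD11 medians thus lay within the range of other dense windows. Of replicate 2 entries, 61.9% overlapped replicate 1 in the ANKRD11 window (51.9 to 71.2) and 57.3% in the chromosome 2 window (45.9 to 68.2). A chromosome 19 window, 34800001 to 34900000, plus strand, with 54 replicate 2 entries, reached 72.2% (58.4 to 83.5). Among the 34 windows with at least 50 replicate 2 entries the share ran from 32.1% to 72.2%, with a median of 51.2%, and the ANKRD11 window ranked 7. The ratio of replicate 1 to replicate 2 entries was 1.65 in the ANKRD11 window, and the median over those 34 windows was 1.54 (0.792 to 2.46). The ANKRD11 window thus came first by number of peaks, for which it was chosen, and not by the share of them that the replicates had in common.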

How the data were processed

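Data are from 2 WT CLIP libraries. Per the submitters' processing notes, tools included Novoalign 3.09.00, MACS2 2.1.1.20160309 and bedtools 2.25.0 on build hg19. The lists deposited by the authors give per peak an unadjusted −log10 p-value, a score (that value times 10, rounded down) and a fold enrichment, the ratio of signal to background, and the peak names carry a p threshold of 0.005. The sources used here do not say which control the caller had. Fold values of different lists share no common scale; they are given per list, with shares above a fold read against the same list, and side by side for paired peaks as a description. In the 2 count files made with featureCounts 1.6.3, 16 columns match no sample label and were not used, so the planned count tests were not run.

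Repeated rows (467329 and 148958) were collapsed to entries of 1 peak and strand. Entries of the 2 lists were matched where they shared 1 base or more on 1 strand; the deposited pairs were exactly those covering at least 50% of the replicate 1 peak. Entries were placed in bins and windows by midpoint. Peaks named are the 5 pairs with the largest lower fold, the 3 highest scores and the widest entry of each list, entries in the exon window, the first and last pairs, those beside the longest gap, and the tightest run of shared peaks; peaks at the borders and the second replicate 2 entry at the window's edge were added after their values were seen. The locus, its rule and these lists were chosen with earlier results of these data known. Intervals are 95% exact binomial, 95% exact Poisson (rates), conditional binomial (ratios of rates) or from order statistics (medians). The overlap search was tested on simulated data. Sequences are not shown, since no hg19 genome was used here. Scripts ran on Python 3.11.15 with scipy 1.17.1, pandas 2.3.3, numpy 2.4.6 and matplotlib 3.10.9. Alternatives covered the overlap rule, list strength and length, strand, window borders and the measure of distance.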

Additional observations from a re-analysis of the deposited data

How the results depend on the processing

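Of 61 recomputed values, 14 left the interval of the value reported (for counts, moved by over 1.5 times). Reversal was not assessed. Values with strand ignored could not move, since every plus-strand entry of the span was also listed on the minus strand. Values from either list alone could not move either, since they were set against the SD of the 2 lists. The matched share of replicate 2 entries, 60.0%, was 35.3% with at least 50% of both peaks required, 39.5% with 50% of the replicate 1 peak and 45.1% with the replicate 1 list cut to its strongest entries, as many as replicate 2 has. The share of replicate 1 entries, 33.8%, was 20.5%, 23.2% and 39.8% under the same settings. Fewer pairs qualify under the first 2 settings, and fewer entries are left under the last. Replicate 1 spacing, 383 bases between midpoints, was 326 as gaps between entries, 436 in the stronger 50% of each list and 569 in the reduced list, and replicate 2 spacing was 1013 in the stronger 50%, since fewer entries remain. The reduced list kept 231 of 370 replicate 1 entries. In the stronger 50% the ratio of rates in the exon window was 0 for replicate 2, where its 1 entry fell away. The densest ANKRD11 window then held 28 shared entries and ranked 2, while it ranked 1 with the list reduced and under both other overlap rules. The settings for counts and ranks were chosen after seeing the data. Either list alone gave an exon window ratio of 0.144 to 0.168 and a spacing of 383 to 649 bases. No paired analysis was possible because no result comes from a test, the columns of counts having no matching label. Depth is unknown, so no limit of detection can be given for a peak missing from a list.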

Other observations

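On the minus strand ANKRD11 held 370 replicate 1 entries and 215 replicate 2 entries, against 23 and 17 in a stretch of the same length beyond its start and 3 and 0 beyond its 3′ end. On the plus strand the span of ANKRD11 held 5 and 3 entries. There the stretch beyond the start held 77 and 50, with 22 of each in pairs, and the stretch beyond the 3′ end held 50 and 28, with 5 of each in pairs. These counts describe the lists only. It is unknown whether strand came from the reads or from an annotation, and peaks with skipped numbers are not listed. Binding specific to a strand or to the gene cannot be read from them.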
